A study of Mus musculus with 12 samples.

Results

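Of 65172 elements formed by merging the peaks of transcription initiation called in 3 substages of mouse meiotic prophase I, 9445 lay away from annotated transcription start sites (TSSs) on chromosomes 1 to 19, held a peak in leptonema/zygonema and a peak in pachynema, and held none in diplonema. They were chosen by those calls: overlapping or touching peaks of the 3 lists were merged, and an element was kept when both earlier lists, but not the diplonema list, contributed to it and its nearest edge was 1000 bp or more from every TSS of the GENCODE M21 annotation (mm10). They are called here the distal elements not called in diplonema. The chromosomes 1 to 19 held 37706 distal elements in all, of which 16750 had peaks in both earlier substages. The share of those 16750 without a diplonema peak, 56.4% (95% Wilson interval 55.6 to 57.1), is the background of the choice itself and not a result.

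The series measured nascent transcription by leChRO-seq, a run-on assay on chromatin that labels and sequences the RNA held by engaged RNA polymerases. Its 12 libraries came from testes of adult wild-type mice, 4 for each of leptonema/zygonema (2 substages collected together), pachynema and diplonema. The methods name C57Bl/6J and DBA/2J mice without saying which gave these libraries. Cells were enriched by STAPUT, sedimentation by size and density, and the fractions were not pure. The paper names spermatogenic cells of other stages as possible contamination, for the most part elongated spermatids. Its text names no somatic cells, though a fraction can also hold these. By the names of the deposited lists the libraries of a substage were merged before peaks were called, which left 1 list per substage, of 71107 leptonema/zygonema, 68352 pachynema and 38603 diplonema peaks, no spread between replicates and no test between substages. Intervals below are 95% Wilson intervals that cover the counting of elements only, and neighbouring elements are not independent. The lists give no read counts. The study states a range of mapped reads over all its assays and a scaling factor for each leChRO-seq library, which were not used here, so the part of depth in the shorter diplonema list was not tested. An element without a diplonema peak was not called there, which is not the same as being silent.

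During leptonema and zygonema chromosomes form their axes and begin to synapse, in pachynema synapsis is complete, and in diplonema the synaptonemal complex comes apart. Active enhancers and promoters both start short, divergent transcripts, and dREG is a machine-learning tool that recognises this pattern in run-on reads and gives every called peak a score that rises with its strength. The score has no unit and the lists were not scaled to each other, so no difference between substages is read from it. The lower of an element's 2 earlier scores was used to rank, bin and weight elements and to sum up groups of them. It mixes lists that were not scaled to each other and, with a median of 0.455, lay nearer to the pachynema than to the leptonema/zygonema score of these elements. A distal peak marks a place of initiation, commonly an enhancer or the start of an unannotated transcript.

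The sequences of 5 of the 6 strongest of these elements show what such a site looks like, leaving out the fourth, in a lincRNA exon. Each is 201 bp of the plus strand of mm10 (GRCm38) around the deposited centre of its highest peak, in lower case. Capitals mark matches, on either strand, to ACAATG (SOX family), GTTGCNA (1 arm of the palindrome bound by RFX factors), TGACATCA (the cAMP response element TGACGTCA with 1 base changed) or TGACGT (1 arm of that element). The first 3 lie in introns and the last 2 are intergenic, and 3 of the 5 windows hold a match.

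Tbl1xr1 intron, chr3:22133581-22133781: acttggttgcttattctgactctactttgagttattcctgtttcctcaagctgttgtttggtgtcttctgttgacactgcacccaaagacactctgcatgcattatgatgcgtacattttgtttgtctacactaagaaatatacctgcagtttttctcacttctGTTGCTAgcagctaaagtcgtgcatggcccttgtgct
Impad1 intron, chr4:4782431-4782631: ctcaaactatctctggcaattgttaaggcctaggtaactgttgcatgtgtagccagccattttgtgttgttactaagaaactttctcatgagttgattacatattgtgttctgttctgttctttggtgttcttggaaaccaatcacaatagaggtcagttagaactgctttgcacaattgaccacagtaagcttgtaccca
Efl1 intron, chr7:82774161-82774361: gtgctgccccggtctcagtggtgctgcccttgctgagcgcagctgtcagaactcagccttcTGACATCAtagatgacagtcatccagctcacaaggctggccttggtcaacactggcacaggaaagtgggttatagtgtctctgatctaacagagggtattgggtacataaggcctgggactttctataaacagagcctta
intergenic, chr4:100593211-100593411: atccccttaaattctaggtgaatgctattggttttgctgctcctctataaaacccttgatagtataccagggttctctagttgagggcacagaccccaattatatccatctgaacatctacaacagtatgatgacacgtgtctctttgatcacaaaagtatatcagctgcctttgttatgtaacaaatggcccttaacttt
intergenic, chr9:16877421-16877621: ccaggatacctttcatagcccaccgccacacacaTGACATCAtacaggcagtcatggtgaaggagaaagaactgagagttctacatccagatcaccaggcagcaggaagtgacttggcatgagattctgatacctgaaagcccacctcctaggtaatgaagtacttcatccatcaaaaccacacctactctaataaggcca

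A further 4 stretches show the longer words counted below, with 24 bp on either side. The first pair holds in capitals GTTGCNA followed directly by GGTAAC, a longer word built on the RFX arm. The second pair holds TTGTGACA or its reverse complement TGTCACAA.

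intergenic, chr1:148885205-148885265: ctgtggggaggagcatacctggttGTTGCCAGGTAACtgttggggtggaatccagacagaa
assigned to Tcl1b4, chr12:105200259-105200319: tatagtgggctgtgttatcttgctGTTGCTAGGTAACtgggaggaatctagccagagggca
intergenic, chr6:82567354-82567409: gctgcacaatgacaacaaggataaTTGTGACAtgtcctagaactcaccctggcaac
assigned to Gfra2, chr14:70847315-70847370: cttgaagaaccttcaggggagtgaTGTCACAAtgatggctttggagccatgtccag

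The 9445 elements stood near the middle of the leptonema/zygonema list and below the middle of the pachynema list. Their best leptonema/zygonema dREG score had a median of 0.647 and ran from 0.251 to 1.567, and their best pachynema score had a median of 0.489 and ran from 0.247 to 1.448. Within its own list the median element stood at the 56.2nd percentile of leptonema/zygonema peaks and the 39.7th of pachynema peaks. The 7305 distal elements with peaks in all 3 lists stood higher, at the 81.8th and 78.8th percentiles, with median scores of 1.027 and 0.926. Both scores belong to the calls that chose the elements, so these values describe the choice. Across the 9445 elements the scores of the 2 substages moved together, with a Pearson r of 0.62 and a Spearman rho of 0.56 (described only, since the same loci enter both).

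**Figure D1:**
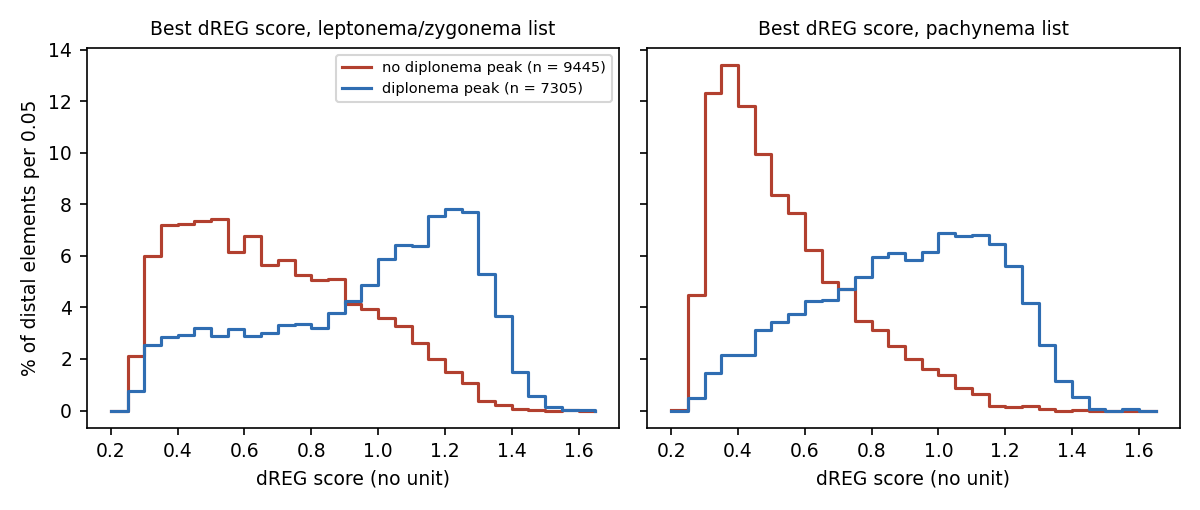
Distribution of the best dREG score per distal element (x axis, no unit) in the leptonema/zygonema list (left) and the pachynema list (right), as the percentage of elements per bin of 0.05 (y axis), for the 9445 elements without and the 7305 elements with a diplonema peak. The elements without one gather at low scores, with a median of 0.647 against 1.027 in the left panel and 0.489 against 0.926 in the right. The panels belong to separate lists that were not scaled to each other.

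The distance between the 2 earlier peaks of an element is bounded by the rule, since peaks that neither overlapped nor touched formed separate elements. Within that bound the centre of the best pachynema peak lay a median of 40 bp from the centre of the best leptonema/zygonema peak, within 50 bp in 57.9% of the elements and within 100 bp in 77.0%. The corresponding shares among the elements with peaks in all 3 lists were 62.8% and 80.9%. The elements not called in diplonema were 590 bp wide at the median, against 870 bp, and 81.5% held a single peak from each earlier list, against 52.3%. Part of that difference in width is built in, since a diplonema peak could extend or join an element only in the compared class.

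The share of distal elements that lacked a diplonema peak was lower at higher earlier scores. By the leptonema/zygonema score alone it was 78.3% (72.8 to 82.9) at scores from 0.2 to 0.3, 73.1% (70.9 to 75.2) from 0.6 to 0.7 and 13.7% (12.3 to 15.2) from 1.2 up, and by the pachynema score alone it went from 92.4% (89.6 to 94.5) to 3.29% (2.37 to 4.54) over the same range. By the lower of its 2 earlier scores, 87.1% (84.3 to 89.4, 599 of 688) lacked one at scores from 0.2 to 0.3, 69.2% (67.2 to 71.2) from 0.5 to 0.6, 27.8% (25.2 to 30.6) from 0.9 to 1.0 and 2.95% (2.02 to 4.29, 26 of 881) from 1.2 up. Proximal elements, under 1000 bp from a TSS, lacked a diplonema peak in 25.7% of all 16873 cases (41.0% of proximal and distal elements together), and their share ran from 73.9% (68.8 to 78.4) at the lowest to 0.344% (0.167 to 0.709, 7 of 2032) at the highest scores. The distal share was above the proximal one in each of the 11 score bins, which describes the calls that chose the elements and tests nothing. The number of peaks in the diplonema list, the depth behind it and the strength of each site were not separated here: when each list was cut to its 38603 highest peaks, 3603 distal elements met the rule, 38.0% (37.0 to 39.0) of those then called in both earlier lists.

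**Figure D2:**
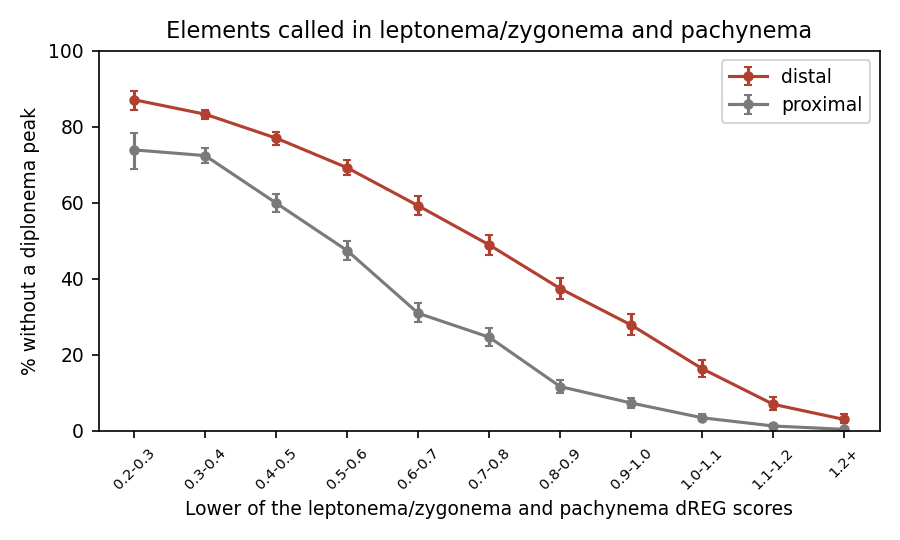
Percentage of elements with leptonema/zygonema and pachynema peaks that lacked a diplonema peak (y axis) against the lower of their 2 earlier dREG scores (x axis, bins of 0.1), for distal and proximal elements, with 95% Wilson intervals as bars. The distal share falls from 87.1% to 2.95% and lies above the proximal share, 73.9% to 0.344%, in each bin.

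By chromosome the share ran from 51.4% on chromosome 14 to 61.9% on chromosome 11, with a median of 56.2%, and the density of the elements ran from 3.27 per Mb on chromosome 3 to 5.01 per Mb on chromosome 11. By distance from the nearest TSS, over all scores, it was 57.9% (56.4 to 59.5) from 1000 to 5000 bp, 55.4% (54.1 to 56.6) to 20000 bp, 56.3% (55.0 to 57.5) to 100000 bp and 57.3% (54.2 to 60.3) beyond. At lower scores of 0.5 to 0.8 it was 58.1% (55.3 to 60.9), 57.2% (54.8 to 59.5), 63.8% (61.5 to 66.1) and 69.7% (64.3 to 74.5) in the same order. At 0.25 to 0.5 it was 81.1%, 79.4%, 82.8% and 85.8%, and from 0.8 up 16.9%, 19.3%, 21.6% and 19.9%, and no test of these differences was made. At the 1000 bp limit, the elements just inside lay 1000 bp from the TSSs of 4930598N05Rik (scores 0.543 and 0.312) and Nos2 (0.7 and 0.546) and 1001 bp from that of 1700101O22Rik (1.056 and 0.789). Just outside, elements with the same calls lay 998 bp from AY512931 and 996 bp from Kif16bos and Gm23299.

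By their midpoints, 41.6% (40.6 to 42.6) of the 9445 elements lay in introns, 5.57% (5.12 to 6.05) in exons and 52.8% (51.8 to 53.8) between genes. The elements with peaks in all 3 lists were divided similarly, with 40.1% (38.9 to 41.2), 4.85% (4.38 to 5.36) and 55.1% (54.0 to 56.2). A protein-coding gene held 39.8% of the elements not called in diplonema, and a lincRNA gene 5.20%. The median distance to a TSS was 14220 bp. RefSeq, which was not used by the rule, placed a TSS under 1000 bp from 8.39% (7.84 to 8.96) of them and from 14.8% (14.0 to 15.6) of the elements with peaks in all 3 lists, in each case outside the GENCODE M21 set.

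Some of the elements lay close to a site that was called in diplonema. The nearest diplonema peak lay a median of 23950 bp from these elements, but 8.13% (7.60 to 8.70) had one within 500 bp and 12.3% (11.6 to 13.0) within 1000 bp. In 24 elements it lay 10 bp away, and the highest-scoring of these was in an intron of Glis1, a zinc finger gene (scores 0.673 and 0.719). Others lay between genes, 79241 bp from the nearest TSS, of Twist2, and in an exon of Tbc1d22b. Without the elements with a diplonema peak within 1000 bp, 8285 remained. Such closeness was more frequent in the other distal classes without a diplonema peak, and no test of these differences was made. Of distal elements called in leptonema/zygonema alone, 9.29% (8.77 to 9.83) had one within 500 bp and 14.0% (13.4 to 14.7) within 1000 bp. Of those called in pachynema alone, 14.8% (14.0 to 15.7) and 19.5% (18.6 to 20.5) did.

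The 259 elements whose 2 earlier scores were both at least 1.0 form the strongest part of the group, 2.74% (2.43 to 3.09) of it. These sites stood at the 91.0th and 87.4th percentiles of their lists at the median, and 7 of them (2.70%, 1.32 to 5.47) had a diplonema peak within 1000 bp. Their nearest diplonema peak was a median of 45790 bp away and their nearest TSS 23477 bp. They lay in introns in 39.8% (34.0 to 45.8) and between genes in 55.2% (49.1 to 61.1). Only 9.65% (6.62 to 13.9) of their 201 bp windows were more than 50% repeat-masked, against 1699 windows of the whole group (interval 17.2 to 18.8%), and 12.0% (8.56 to 16.5) held 5 or more CpG dinucleotides, against 20.4% (19.6 to 21.2).

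The strongest element of all lay in an intron of Tbl1xr1, which encodes a subunit of the NCoR/SMRT corepressor complex, with scores of 1.381 in leptonema/zygonema and 1.448 in pachynema. The pachynema score was the highest of any of the 9445 elements, and the nearest diplonema peak was 11010 bp away. An intron of Impad1, a nucleotide phosphatase gene, followed (1.495 and 1.347), and here a diplonema peak lay 340 bp from the element. In an intron of Efl1, a GTPase gene of ribosome maturation, the scores were 1.42 and 1.335 and the nearest diplonema peak lay 16750 bp away. The fourth lay in an exon of the lincRNA 6820426E19Rik (1.384 and 1.333), 135020 bp from any diplonema peak.

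Of the remaining 6 of the 10 strongest, 5 lay between genes. Those of chromosome 4 (1.331 and 1.349) and chromosome 9 (1.342 and 1.324), whose sequences are printed above, lay 113710 and 50190 bp from a diplonema peak. An intron of Fry, whose product supports cell polarity and spindle integrity, held 1 with scores of 1.484 and 1.291. An intergenic element assigned to Dyrk2, a protein kinase gene, scored 1.296 and 1.282. Of the last 2, both intergenic, that of chromosome 6 (1.383 and 1.282) lay 84828 bp from its nearest TSS, of Pole4, and that of chromosome 1 (1.287 and 1.277) lay 5570 bp from a diplonema peak. The promoters of Tbl1xr1, Impad1, Efl1 and Fry were called in diplonema, and that of Dyrk2 was called in leptonema/zygonema alone.

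The genes assigned to the elements were described by the calls at their promoters, which the rule did not use. Each element was assigned to the protein-coding gene that held it, or otherwise to the one with the nearest TSS within 50 kb, and 68.0% (67.0 to 68.9) could be assigned. This gave 4456 genes, 21.4% of the 20807 protein-coding genes of chromosomes 1 to 19. The number was 2177 with the earlier lists filtered by score, 1982 with lists of equal length and 2064 by the nearest TSS within 10 kb. A promoter counted as called when a peak lay under 1000 bp from any TSS of the gene. Of the 4456 genes, 70.3% (69.0 to 71.6) had a called promoter in leptonema/zygonema, 72.4% (71.1 to 73.7) in pachynema and 62.0% (60.6 to 63.4) in diplonema. Of all protein-coding genes of chromosomes 1 to 19, 60.7%, 61.2% and 52.3% had one, in the same order. Of the 3014 genes with elements and a promoter called in both earlier substages, 87.9% (86.6 to 89.0) also had one called in diplonema, at the same or another TSS. The share was 87.1% of all protein-coding genes with promoters called in both earlier substages.

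Diplonema promoter calls were close to each other among genes with either kind of distal element. Among the 2747 genes that had elements not called in diplonema and no element with peaks in all 3 lists, 62.0% (60.2 to 63.8) had a diplonema promoter. The share was 62.0% (59.7 to 64.3) in the 1709 genes with both kinds, 58.4% (56.2 to 60.6) in the 1893 genes with the latter kind only, and 48.6% (47.8 to 49.4) in the 14458 genes with neither. No test of these differences was made, and gene length was not matched.

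**Figure D3:**
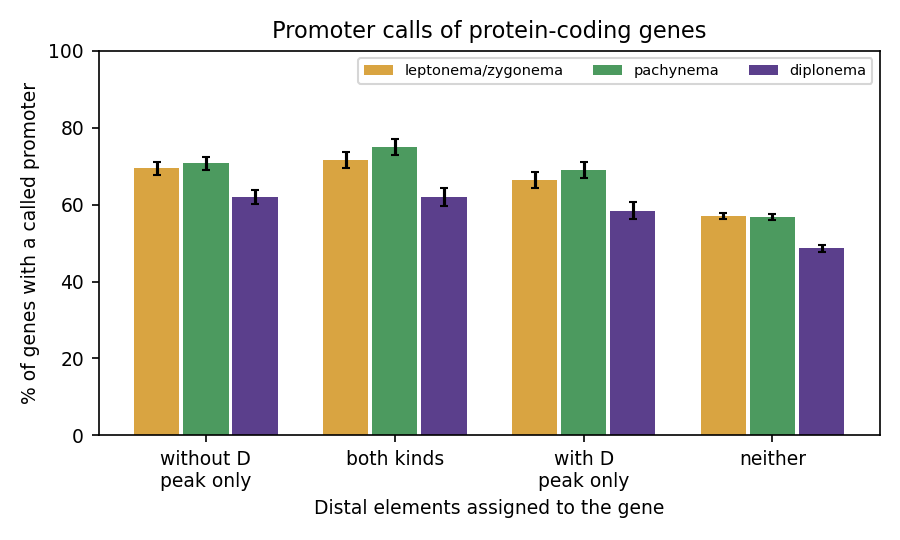
Percentage of protein-coding genes with a promoter called in each substage (y axis; bars by substage, with 95% Wilson intervals), by the kind of distal element assigned to the gene (x axis; D peak, diplonema peak). Diplonema promoter calls stand at 62.0% for genes with elements lacking a diplonema peak, alone or with the other kind, 58.4% for genes with only the other kind and 48.6% for genes with neither.

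Some genes held several of the elements. Of the 2619 protein-coding genes with at least 1 in the body, 236 held 3 or more. Of all distal elements called in both earlier lists and assigned to a gene, 56.3% lacked a diplonema peak. In all, 604 genes held 3 or more distal elements called in both earlier substages in their body. Of these genes, 65 had none of the elements called in diplonema and 21 had all of them called there. By the 56.3% alone, genes with none called would outnumber those with all called, and no test was made. Pde1c, a calcium and calmodulin dependent phosphodiesterase gene of 499 kb, held 8 such elements and none with a diplonema peak, the nearest diplonema peak being 18740 bp from any of them. Its promoter was nevertheless called in all 3 substages. Disc1, a scaffold protein gene of neurons, held 6, and its promoter was called in leptonema/zygonema alone. Astn2, a neuronal membrane protein gene, held 5, without a promoter call in any substage. Dram1, which acts in autophagy, and Retreg1, a receptor for autophagy of the endoplasmic reticulum, held 5 each with promoters called throughout.

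The next 5 genes by the same measure held 4 elements each. Fat3 (an atypical cadherin), Fam196b and Spock3 (a proteoglycan) had no called promoter in any substage, Tmc1, a gene of the hair cell transduction channel, had 1 in pachynema alone, and Fam107b had 1 in each substage. The elements of Spock3 were 434920 bp or more from any diplonema peak and those of Astn2 101480 bp or more. Over the 65 genes, 44 promoters were called in leptonema/zygonema, 47 were in pachynema and 35 in diplonema, beside 60.7%, 61.2% and 52.3% of all protein-coding genes in the same order. Of the 21 genes with all such elements called in diplonema, 16 had a diplonema promoter.

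The genes with the most elements were long ones. Gm20388, an annotated locus of 4430 kb that spans many other genes, held 13, beside 19 elements with peaks in all 3 lists. Camta1, a transcription activator gene of 945 kb, held 12 beside 6. Fgfr2, a fibroblast growth factor receptor gene annotated here over 2960 kb, held 11 beside 3, and Dpp6, which modulates potassium channels, 10 beside 6. Ank3, encoding ankyrin-G, held 9 beside 6, and Ntm, an adhesion molecule gene, 8 beside 1. After Pde1c came Cacna2d1 (a calcium channel subunit), Dlgap2 (a synaptic scaffold protein) and Galntl6 (a glycosyltransferase of the GalNAc family) with 7 each, beside 1, 2 and 3. Promoters were called in diplonema for 8 of these 10, all but Dpp6 and Ank3, which were called in pachynema alone.

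Along the chromosome, 17.9% (17.2 to 18.7) of the elements lay within 10 kb of another of them, against 16.0% (15.2 to 16.9) among the elements with peaks in all 3 lists. The classes differ in number, 9445 against 7305, and a denser set has more close neighbours by count alone. There were 776 runs of 2 or more with no other called element between them and gaps of up to 20 kb, holding 1631 elements. The longest, of 5 elements over 39.8 kb, lay between genes at chr2:74168101-74207900 (median lower score 0.465). Of the 3 runs of 4, that within Tmc1 was the tightest, with 4 elements over 5.91 kb.

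Among genes of meiosis, a minority had such elements. Of 15 genes of the chromosome axis and synaptonemal complex on chromosomes 1 to 19, 3 had 1 or more, of 26 genes of double-strand break formation and recombination 3, and of 16 genes of DNA damage signalling 1, beside 21.4% of all genes, which lies inside the interval of each list. Scores below are those of the gene's strongest element, leptonema/zygonema first. The strongest lay by Rad21l, a meiotic cohesin gene (0.715 and 1.016). A RefSeq TSS lay inside that element, and no promoter of Rad21l was called from the GENCODE TSSs. Syce1 and Sycp1, of the central element and transverse filaments of the synaptonemal complex, had 1 each (0.641 and 0.355; 0.482 and 0.313). Hfm1, a crossover helicase gene, had 1 (0.633 and 0.546), as did Mnd1, a cofactor of strand exchange (0.418 and 0.325), and Mei4, a factor of break formation (0.292 and 0.345). Etaa1, an activator of ATR, had 2, the stronger at 0.586 and 0.704. Sycp1 and Etaa1 each also had 1 element with a diplonema peak, and none of the other genes named here had one.

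Genes of the piRNA pathway, which makes small RNAs that silence transposons, had elements in 7 of 20 cases (35.0%, 18.1 to 56.7, an interval that includes the 21.4% of all genes). An intron of Tdrd1, a Tudor domain protein gene, held 1 with scores of 0.992 and 1.021, and an intron of Tdrd7 1 with 0.983 and 0.87. Mael, a gene of piRNA biogenesis, held 2, the stronger in an intron with 0.798 and 0.651. The promoters of all 3 were called in each substage, and Tdrd7 also had 2 elements with a diplonema peak. By Piwil4, the Argonaute of fetal germ cells, an intergenic element scored 0.767 and 0.966 while no promoter was called in any substage.

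Among 27 transcription regulators of meiosis and spermatids, 8 had such elements (29.6%, 15.9 to 48.5). The 21.4% of all genes lies inside that interval and inside those of the next 2 lists. Taf4b, a TFIID subunit gene, held the strongest in an intron (1.221 and 0.994), followed by Rfx3 (1.058 and 0.973). Rfx2, needed for spermiogenesis, held 3 with none called in diplonema, the strongest at 0.908 and 0.507, and Rfx4 had 2 (0.437 and 0.447 for the stronger). The promoters of all 4 were called in each substage, and Rfx4 also had 1 element with a diplonema peak. Of 30 genes of RNA polymerase II pausing and elongation, 7 had elements (23.3%, 11.8 to 40.9), with Aff4 (1.2 and 0.946) and Nelfcd (0.949 and 0.815) ahead of Ell (0.955 and 0.548) and Cdk12 (0.536 and 0.544). Of 54 genes of spermatid differentiation 11 had elements (20.4%, 11.8 to 32.9): Odf1, of the outer dense fibres, had 4 beside 2 with a diplonema peak (strongest 1.034 and 0.764), Zpbp, of the acrosome, 1 (1.088 and 0.548), and Gsg1 2 (0.862 and 0.534). The element by Ubl4b (0.709 and 0.77) lay on a RefSeq TSS. Cdk12 and Gsg1 each also had 1 element with a diplonema peak.

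Markers of other cells were part of the check on the labels. Promoters of 14 of the 15 axis and synaptonemal complex genes, which mark prophase I, were called in each substage. Of 23 genes of spermatogonia and meiotic entry, 18 had a promoter called in leptonema/zygonema, 19 had one in pachynema and 13 in diplonema, beside the 60.7%, 61.2% and 52.3% of all protein-coding genes given above. Of these 23, 5 (21.7%, 9.66 to 41.9) had an element not called in diplonema: Uchl1 (0.621 and 0.58), Kit (0.471 and 0.506), Id4 (0.59 and 0.376), Dazl (0.357 and 0.344) and, outside the naming rule and named after its values were seen, Ret (0.439 and 0.342). Of 20 Sertoli cell genes 2 had one (10.0%, 2.79 to 30.1), Sox9 (0.554 and 0.387) and Aard (0.261 and 0.316), of 7 myoid genes 1 (14.3%, 2.57 to 51.3), Cnn1 (0.939 and 0.315), and of 11 Leydig cell genes none (interval up to 25.9%). The 21.4% of all genes lies inside each of these 4 intervals. Elements with peaks in all 3 lists were assigned to 6 of the 23 genes of spermatogonia and meiotic entry and 5 of the 20 Sertoli cell genes. Id4 had 3 of them and Kit 1. No myoid or Leydig cell gene had one. Promoters were called, from the earliest to the latest substage, for 8, 12 and 10 of the 20 Sertoli cell genes, 3, 2 and 0 of the 7 myoid genes and 2, 4 and 1 of the 11 Leydig cell genes.

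Of 9 endothelial genes 4 had such elements (44.4%, 18.9 to 73.3, an interval that includes the 21.4% of all genes), with 8 elements beside 2 with a diplonema peak. The counts were 4 beside 1 for macrophage and blood cell genes and 1 beside 0 for myoid genes. For Sertoli cell genes they were 2 beside 5, and for genes of spermatogonia and meiotic entry 7 beside 10. Over all elements called in both earlier lists and assigned to a gene, 56.3% lacked a diplonema peak, and no test of these differences was made. The 4 endothelial genes were Cdh5 (1.124 and 0.932), which encodes the endothelial cadherin, Vwf (0.987 and 0.788), Kdr (0.884 and 0.649) and Flt1 (0.832 and 0.61). Of the 9 endothelial promoters, 2 were called in each earlier substage and 1 in diplonema. Of 13 macrophage and blood cell genes, 3 had elements (23.1%, 8.18 to 50.3), Ptprc (0.754 and 0.487), C1qb (0.478 and 0.609) and Cx3cr1 (0.558 and 0.381), and promoters were called for 2, 1 and 1. Whether RNA from other cells of the testis contributed to these elements was not tested, and in these bulk fractions fewer cells of a type and less RNA per cell cannot be told apart.

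**Figure D4:**
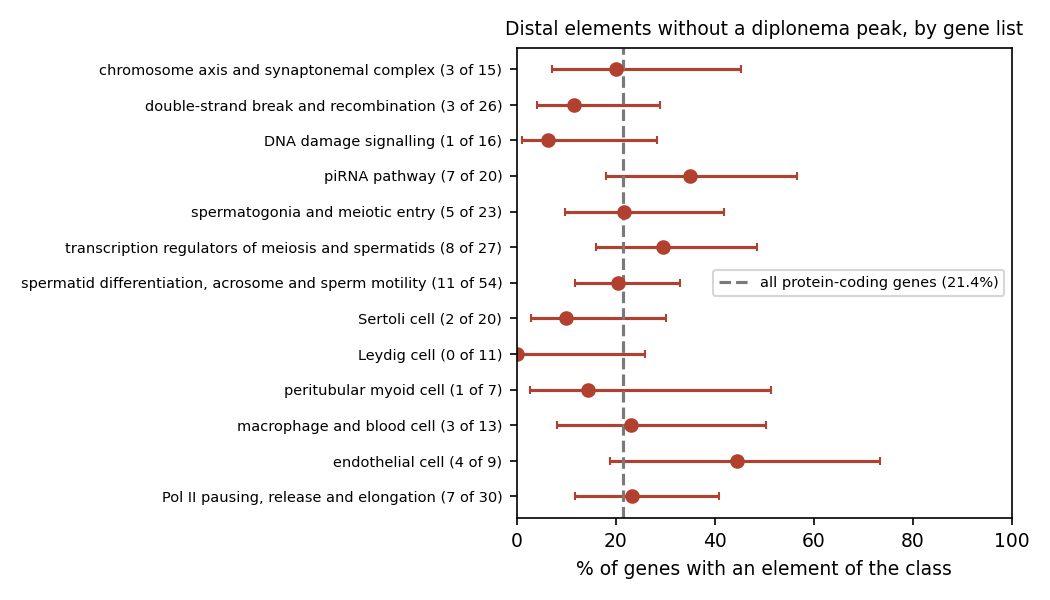
Percentage of the genes of each list (y axis, with counts) that had at least 1 distal element not called in diplonema (x axis), with 95% Wilson intervals; the dashed line marks 21.4%, the share of all protein-coding genes of chromosomes 1 to 19. The interval of each list includes that line, and the widest belongs to the 9 endothelial genes (4 of 9).

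In their sequence the elements were close to the others in base composition. The median GC content of the 201 bp windows was 47.3%, against 48.3% in the elements with peaks in all 3 lists. Fewer held 5 or more CpG dinucleotides, 20.4% (19.6 to 21.2) against 26.8% (25.7 to 27.8), while it was 16.4% (15.7 to 17.1) of distal elements called in leptonema/zygonema alone and 31.0% (29.8 to 32.1) of those called in pachynema alone. The share lacking a diplonema peak was 60.0% (58.3 to 61.7) for windows without a CpG and 49.6% (48.1 to 51.2) for those with 5 or more, and this order held in each of 3 bands of earlier score.

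In these windows 27 motifs were counted on both strands. CCGGAAG, of the ETS family, was in 1.98% (187 windows) and the NRF1 motif (GCGCA, any base, GCGC) in 0.519%, against 3.49% and 1.26% of the elements with peaks in all 3 lists, 1.37% and 0.258% of leptonema/zygonema alone, 3.41% and 0.919% of pachynema alone, and 0.783% and 0.0741% of windows 2000 bp away. The MYB family consensus GGCNGTT, which A-MYB of pachytene spermatocytes binds, was in 8.57% (8.02 to 9.15), against 12.0% (11.2 to 12.7) in the elements with peaks in all 3 lists, 6.94% (6.49 to 7.42) in distal elements called in leptonema/zygonema alone, 11.6% (10.9 to 12.4) in those called in pachynema alone, and 5.31% (4.88 to 5.79) in the windows 2000 bp away. It stood at 9.30% over all 34812 windows of these 4 classes. When the elements with peaks in all 3 lists were weighted to the GC content and score of the others, their share was 13.1%.

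The RFX arm GTTGCNA and the SOX family core ACAATG had higher shares here than in windows 2000 bp away. GTTGCNA was in 15.2% of the windows, against 17.9% with peaks in all 3 lists, 10.7% of leptonema/zygonema alone, 7.85% of pachynema alone, 12.9% over the 4 classes and 5.17% in the windows 2000 bp away. ACAATG was in 21.8%, against 20.9%, 17.8%, 11.5%, 18.4% and 12.0% in the same order. The cAMP response arm TGACGT, contained in the full TGACGTCA, was in 5.07%, against 6.16%, 3.32%, 3.29%, 4.38% and 1.69%. With the weighting for GC content and score, the shares in the elements with peaks in all 3 lists became 13.3% for GTTGCNA, 18.2% for ACAATG and 4.53% for TGACGT, which turns the order of the classes for GTTGCNA and TGACGT. With GC content alone they were 17.7%, 21.5% and 5.93% and no order turned. The full TGACGTCA, in 1.01% against 1.90%, kept its order under the first weighting, at 1.30%. GTTGCCAT, a longer form of the RFX arm in 2.96% against 3.31%, came to 2.97% in both classes. The score used in the first weighting belongs to the calls that chose the elements.

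Longer words were chosen after the hexamers of the same windows had been ranked, and their shares describe these windows and test nothing. TGACATCA was in 8.55% (808 windows), against 9.99% with peaks in all 3 lists, 5.01% of leptonema/zygonema alone, 1.96% of pachynema alone, 6.45% over the 4 classes and 1.10% in the windows 2000 bp away. TTGTGACA was in 5.55% (524 windows), against 4.98%, 3.77%, 1.21%, 4.04% and 0.963%. After weighting for GC content and score, the elements with peaks in all 3 lists held these words in 5.61% and 2.81%, which turns the order of the classes for TGACATCA. By GC content alone the shares were 10.3% and 5.11% and no order turned. In 104 windows (1.10%) the words ran into each other, sharing the 5 bases TGACA, as they did in 1.34% with peaks in all 3 lists, 0.447% of leptonema/zygonema alone, 0.0623% of pachynema alone and 0.0212% of the windows 2000 bp away. Weighting by GC content and score brought the share with peaks in all 3 lists to 0.759%, which turns the order, and by GC content alone to 1.40%, which does not. In all, 1203 windows (12.7%, 12.1 to 13.4) held at least 1 of the pair, against 13.4% (12.6 to 14.2) with peaks in all 3 lists, 8.20% of leptonema/zygonema alone and 3.10% of pachynema alone.

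The longer RFX word, GTTGCNA followed directly by GGTAAC, was in 272 windows, 2.88% (1.80% with windows at the element midpoint). It was in 4.16% with peaks in all 3 lists, 1.40% of leptonema/zygonema alone, 0.389% of pachynema alone, 2.19% over the 4 classes, and 3 of the 9445 windows 2000 bp away (0.0318%), and weighting by GC content and score brought the share with peaks in all 3 lists to 2.54%, which turns the order, and by GC content alone to 4.00%, which does not. Of the 272 windows, 264 (97.1%) held it in sequence that the reference marks as repeats, whereas TGACATCA lay there in 5.32% of its windows and TTGTGACA in 5.92%. In the 2 stretches printed above, the capitals mark this word.

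After the same weighting, the 1423 hexamers found in at least 5% of the windows of the 9445 elements were ranked. Each was counted together with its reverse complement. TCACAA (1.49 times the share in the elements with peaks in all 3 lists), ATTGTG (1.48) and GTGACA (1.47) came first. Without weighting their ratios were 1.10, 1.16 and 1.06. At the other end stood AGTTGG (0.661), AACTGC (0.679) and CAACTG (0.691). The reverse complement of CAACTG is a form of the MYB core CNGTTG, which was in 32.4% of the windows against 37.6%.

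**Figure D5:**
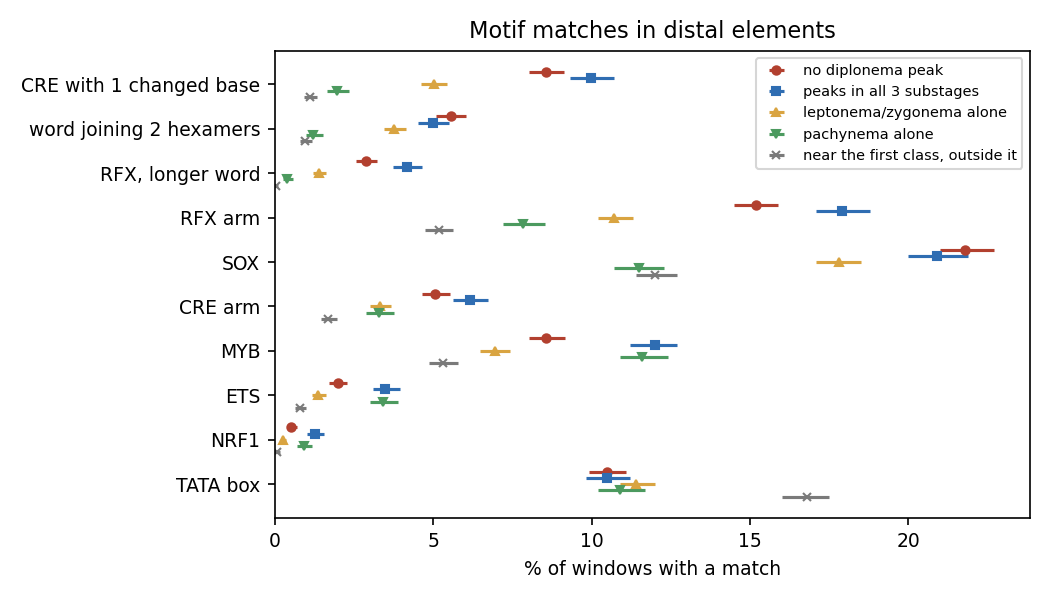
Percentage of 201 bp windows with a match on either strand (x axis) for 10 motifs (y axis), with 95% Wilson intervals, in distal elements without a diplonema peak, with peaks in all 3 substages, called in leptonema/zygonema alone, called in pachynema alone, and in windows 2000 bp from the first class. The changed cAMP response element (CRE) is TGACATCA, the word joining 2 hexamers is TTGTGACA and the longer RFX word is GTTGCNA followed by GGTAAC, and for these 3 the first 2 classes lie above pachynema alone and the surroundings.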

How the data were processed

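Prophase I cells were enriched from wild-type mouse testes, and 12 leChRO-seq libraries were made, 4 per substage. According to the methods, the authors used PRINSEQ lite to drop duplicate reads by their molecular identifiers and cutadapt to trim adapters, aligned reads to mm10 plus a ribosomal RNA unit with BWA and called peaks with dREG at default settings (its version is not given in the sources used here). That the libraries of a substage were pooled is taken from the names of the deposited lists, 1 per substage. The labels call the reads single-end and the methods paired-end. For every peak the authors deposited positions, a centre, a dREG score and a p-value; it is not stated whether the p-value is adjusted. The p-value was used only for an alternative filter.

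Overlapping or touching peaks (gap of 0 bp) from all lists were joined into elements and annotated with GENCODE M21. TSS distance was measured from the element's nearest edge. Motifs were scored as present or absent within 100 bp of the centre of the element's best leptonema/zygonema or pachynema peak, on both strands of the GRCm38 RefSeq sequence, whose lower case marks repeats. Weighting used bins of 5 percentage points of GC content and 0.1 of the lower score. Hexamers were ranked when present in at least 5% of the windows of the elements not called in diplonema. Words rarer there were left out, whatever their share in the compared class. Genes and sites were named by rule: the 10 strongest elements by their lower score, the 10 genes with the most elements, the 10 with the most elements all lacking a diplonema peak, up to 4 genes from each of 13 lists, and the sites nearest the limits. The elements, gene lists and motifs were chosen with earlier results of these data known; 4 words, the weighting, the windows 2000 bp away and the group with both scores at least 1.0 were chosen after seeing these windows. The interval, distance and motif steps were tested on simulated data. Alternatives changed the score, p-value, list length, merging, TSS and window settings. Analyses used Python 3.11.15, numpy 2.4.6, pandas 2.3.3 and matplotlib 3.10.9. Signal tracks and other assays were not analysed here.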

Additional observations from a re-analysis of the deposited data

Results flagged for a closer look

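The rule kept to chromosomes 1 to 19, so no element of the sex chromosomes was in the classes compared. Their peaks did count in the percentiles within each list and in the lists of equal length. Elements of the same kind were present on the sex chromosomes. On the X chromosome 258 distal elements had peaks in leptonema/zygonema and pachynema and none in diplonema, 60.6% (95% Wilson interval 55.8 to 65.1) of 426, with a median lower score of 0.516. On the Y chromosome there were 16 of 23 (69.6%, 49.1 to 84.4), with a median lower score of 0.369. The interval of the X chromosome overlaps the range of 51.4% to 61.9% over chromosomes 1 to 19, and no test of the difference was made.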

How the results depend on the processing

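No paired analysis was possible because the merged peak lists used here name no replicate, so none was left out either, and signal of single libraries was not analysed here. The number of elements moved by over 1.5 times under 2 alternatives. When leptonema/zygonema and pachynema peaks below a score of 0.5 were dropped before merging, and diplonema peaks were not, it was 4000 (39.7% of those called in both earlier lists; median scores 0.875 and 0.685; 40.6% intronic, 5.00% exonic, 54.4% intergenic; 18.1% with 5 or more CpG; 15.1% over 50% repeat-masked; GTTGCNA in 17.8%, ACAATG in 24.4%). With lists of equal length it was 3603 (38.0%; 0.897 and 0.702; 40.2%, 4.75%, 55.0%; 17.1%; 14.7%; 18.3%; 24.9%, in the same order). The share called in both earlier lists but not in diplonema was 62.8% with scores of at least 0.5 in all lists. At p-values up to 0.01 it was 57.7%, and when peaks within 100 bp were merged 54.7%. Merging within 500 bp gave 53.9% (median scores 0.679 and 0.502, ACAATG in 22.9%). With elements that had a diplonema peak within 1000 bp counted as called there, it was 49.5% of the same 16750 (0.676 and 0.501, ACAATG in 22.8%). It was 53.3% with TSSs of protein-coding genes alone and 58.2% with RefSeq TSSs added. The genes with elements, 4456 as reported, were 2177 with the earlier lists filtered by score and 1982 with lists of equal length, and assigning genes by the nearest TSS within 10 kb gave 2064, with diplonema promoters for 66.8%. The 21.4% of all genes would be lower in these 3 cases, and the gene lists were not recounted. Windows of 50 bp on either side held GGCNGTT in 4.47%, TGACGT in 3.16%, GTTGCNA in 9.92% and ACAATG in 13.9%, and windows at the element midpoint in 7.46%, 4.25%, 12.3% and 19.5%. The longer RFX word, in 2.88% as reported, was in 2.04% and 1.80% of these windows, TGACATCA in 6.13% and 6.86%, and TTGTGACA in 3.74% and 4.55%. In the shorter ones CCGGAAG was in 1.20% and CNGTTG in 18.4%. With the earlier lists filtered by score, the longer RFX word, TGACATCA and TTGTGACA were in 3.77%, 10.8% and 7.10%. With lists of equal length they were in 3.86%, 11.3% and 7.33%. The cause of these changes was not tested, except that a shorter window holds fewer words by construction. Shares after weighting are given with the motifs, except for CCGGAAG, the NRF1 motif and CNGTTG. Weighted for GC content and score, the elements with peaks in all 3 lists held these in 4.45%, 1.11% and 37.2%, and no order turned.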
